A study of Mus musculus with 7 samples.

Results

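The alveolar type 1 (AT1) cell genes Ager, Hopx, Rtkn2, Pdpn, Akap5, Clic5, Emp2, Cav1, Cav2 and Gprc5a were followed in whole-lung RNA of mice with bleomycin-induced lung injury, with and without hyperbaric oxygen (HBO). They were taken from the deposited count table by symbol, and all 10 were found among its 55401 genes. The table held 4 mice given bleomycin alone (BLM) and 3 given bleomycin and then HBO (BLM+HBO), all male C57BL/6 mice aged 6 to 8 weeks. Bleomycin is a cytotoxic antibiotic which, instilled into the airway, injures the alveolar epithelium and leads to fibrosis. The mice were randomised on day 7, HBO was given at 2.5 ATA for 90 min per day on 14 days, and the lungs were taken on day 21. The BLM mice are described both as placed in the chamber without pressurised oxygen and as untreated, and which applied was not settled here. Every mouse had received bleomycin, so the comparison is between injured lungs and no uninjured level was measured in these samples.

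AT1 cells are the thin, flat cells that cover nearly all of the alveolar surface and form, with the capillary endothelium, the barrier across which oxygen passes into the blood. They are renewed largely from alveolar type 2 (AT2) cells, the cuboidal makers of surfactant, which pass through a keratin-rich transitional state before they flatten. Bleomycin injures AT1 cells, and transitional cells gather in the injured lung. Most AT1 genes are shared with some other cell of the lung, among them caveolin genes with endothelium and Pdpn with lymphatic endothelium and mesothelium. In whole-lung RNA, fewer AT1 cells and less AT1 RNA per cell cannot be told apart.

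None of the 10 AT1 genes was called different between BLM and BLM+HBO mice, which asked for a fold change above 1.5 and an unadjusted P below 0.05. Of all 17465 genes tested, 6.29% passed both limits, and calls in every list below are to be read against this share. Pdpn passed the P limit alone and was lower in BLM+HBO mice, while 10.7% of all genes passed it. No AT1 gene passed an adjusted P of 0.05 in edgeR's quasi-likelihood test, nor did any gene of the table (0.0%), and the lowest adjusted P of an AT1 gene was 0.449. DESeq2 gave 123 genes of the table at an adjusted P below 0.05 and none of the AT1 genes. Not one of the AT1 genes had ranges that were separate between the groups, against 8.77% of all genes.

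The log2 fold changes of the AT1 genes lay between -0.31 and 0.48, with 6 above 0 and 4 below it. Their median was 0.07, and that of all tested genes was 0.01. For 6 of the 10 genes (Ager, Akap5, Clic5, Emp2, Cav1 and Gprc5a) the 95% interval of the change held no fold above 1.5 in either direction. For Hopx, Rtkn2, Cav2 and Pdpn the interval reached past that fold on 1 side. The AT1 genes were counted deeply, with 1453 to 67860 reads per gene and mouse, so counting error was small beside the differences between mice.

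The libraries held 18157161 to 26365969 counts. Library BLM+HBO 2 stood apart from its group: its chi-square per gene against BLM 4 was 13.0, lower than for any pair within a group, and those against BLM+HBO 1 and BLM+HBO 3 were 64.3 and 57.5. Without it, 1914 genes passed the P and fold limits in place of 1098, and no AT1 gene did. RNA of heart muscle was higher in BLM+HBO mice, with 10 of 12 heart muscle genes called higher and a summed level of 79 to 204 CPM in BLM mice against 753, 595 and 177 CPM in BLM+HBO 1 to 3. CPM are counts scaled to a common library size. The labelled tissue was borne out by its markers, since Sftpc lay between 4549 and 16262 CPM.

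**Figure D1:**
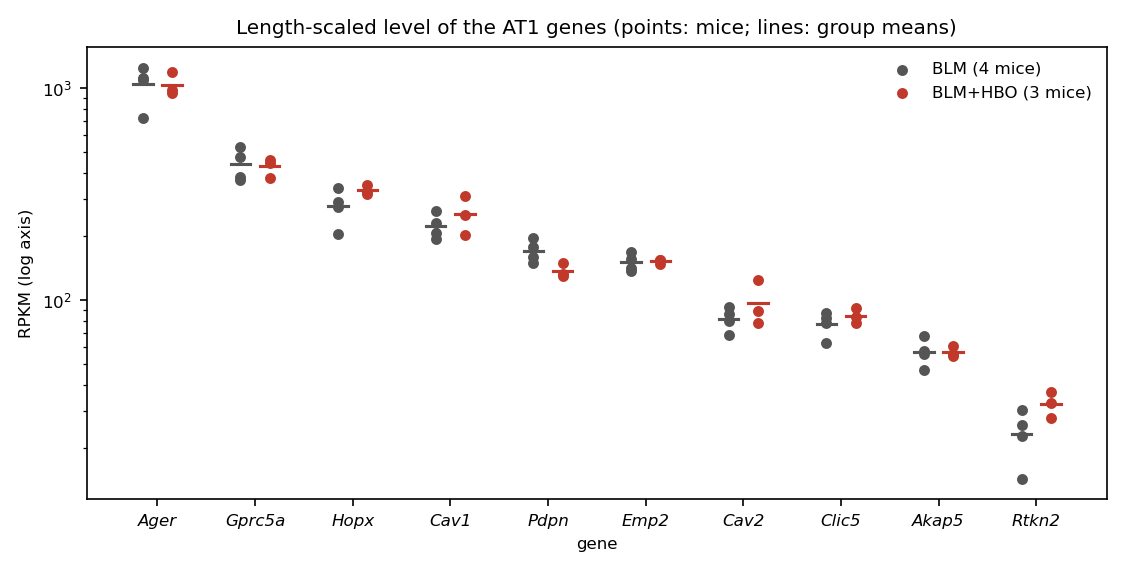
Length-scaled level (RPKM, log axis) of each AT1 gene in each mouse, ordered by the mean of the BLM mice, with BLM in grey, BLM+HBO in red and lines at the group means. Ager lay highest, between 722 and 1250 RPKM, and Rtkn2 lowest.

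The AT1 genes covered a wide span of levels, compared between genes as RPKM, the read level scaled to exon length and library size. Ager, which encodes the receptor RAGE, led with 1046 ± 227 RPKM in BLM mice (SD, n = 4) and 1040 ± 130 RPKM in BLM+HBO mice (SD, n = 3). Gprc5a followed at 438 RPKM in BLM mice, then Hopx at 277, Cav1 at 224, Pdpn at 171, Emp2 at 151, Cav2 at 82.0, Clic5 at 77.2, Akap5 at 57.1 and Rtkn2 at 23.3 RPKM. In BLM mice the ranges of neighbours in this order did not overlap for Ager and Gprc5a, Gprc5a and Hopx, Emp2 and Cav2, and Akap5 and Rtkn2. The ranges overlapped in BLM mice for the neighbours from Hopx through Emp2 and from Cav2 through Akap5. In BLM+HBO mice, only Pdpn with Emp2 and Cav2 with Clic5 overlapped among these neighbours. Pdpn lay above Emp2 in 4 of 4 BLM mice and in 1 of 3 BLM+HBO mice.

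Promoter windows of RefSeq (GRCm38.p6, 250 bases before to 50 after a start site) were held for 8 of the 10 genes, in 10 windows, and not for Rtkn2 and Gprc5a. A window is shown for Pdpn because it alone passed the P limit, for Hopx because it held the matches to the NKX2-1 motif, and for Cav2 because it held the match to the AP-1 motif. All are printed 5′ to 3′ on the strand of the gene, with motif matches on either strand in capitals. The Pdpn window is chr4:143299515-143299814 on the minus strand, the Hopx window chr5:77115074-77115373 on the minus strand, and the Cav2 window chr6:17280935-17281234 on the plus strand.
Pdpn: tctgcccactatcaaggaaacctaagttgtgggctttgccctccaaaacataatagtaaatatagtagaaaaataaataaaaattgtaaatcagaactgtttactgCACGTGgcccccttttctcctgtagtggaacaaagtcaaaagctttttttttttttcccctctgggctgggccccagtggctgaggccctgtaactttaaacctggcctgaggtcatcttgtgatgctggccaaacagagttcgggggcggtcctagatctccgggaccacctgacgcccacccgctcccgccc
Hopx: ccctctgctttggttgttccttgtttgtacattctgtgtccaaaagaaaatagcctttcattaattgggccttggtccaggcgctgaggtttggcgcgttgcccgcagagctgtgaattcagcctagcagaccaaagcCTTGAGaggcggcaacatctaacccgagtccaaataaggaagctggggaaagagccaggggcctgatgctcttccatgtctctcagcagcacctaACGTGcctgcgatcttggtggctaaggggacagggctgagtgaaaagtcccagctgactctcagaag
Cav2: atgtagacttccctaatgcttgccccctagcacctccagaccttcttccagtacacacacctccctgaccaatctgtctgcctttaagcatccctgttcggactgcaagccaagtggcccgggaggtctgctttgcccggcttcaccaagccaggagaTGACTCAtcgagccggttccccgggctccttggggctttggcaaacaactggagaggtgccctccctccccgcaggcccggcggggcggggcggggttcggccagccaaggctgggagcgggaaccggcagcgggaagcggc

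NCGTG, with N for any base, is a looser form of RCGTG (R for A or G), the core that hypoxia-inducible factors bind. It also takes in CCGTG and TCGTG, so its matches are not all matches to that core. The capitals in Pdpn mark overlapping matches to NCGTG on both strands near position -144 from the start site. Those in Hopx mark a match to the NKX2-1 motif CTCAAG on the reverse strand at -112 and an NCGTG match at -17. Cav2 has the AP-1 motif TGANTCA at -92. NKX2-1 is the lineage factor of lung epithelium, and AP-1 is a factor of growth and stress responses. Over the 10 windows, CTCAAG was found in 2, both of Hopx, while 15.9% of all 32851 promoter windows held it. TGANTCA was found in 1 window against 7.81% of all, and NCGTG in 8 windows of 6 genes against 61.7% of all. GGAATG, the motif of the TEAD factors through which YAP and TAZ act, was found in none of the 10 and in 14.7% of all windows. The Ager window held none of the 4 motifs.

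**Figure D2:**
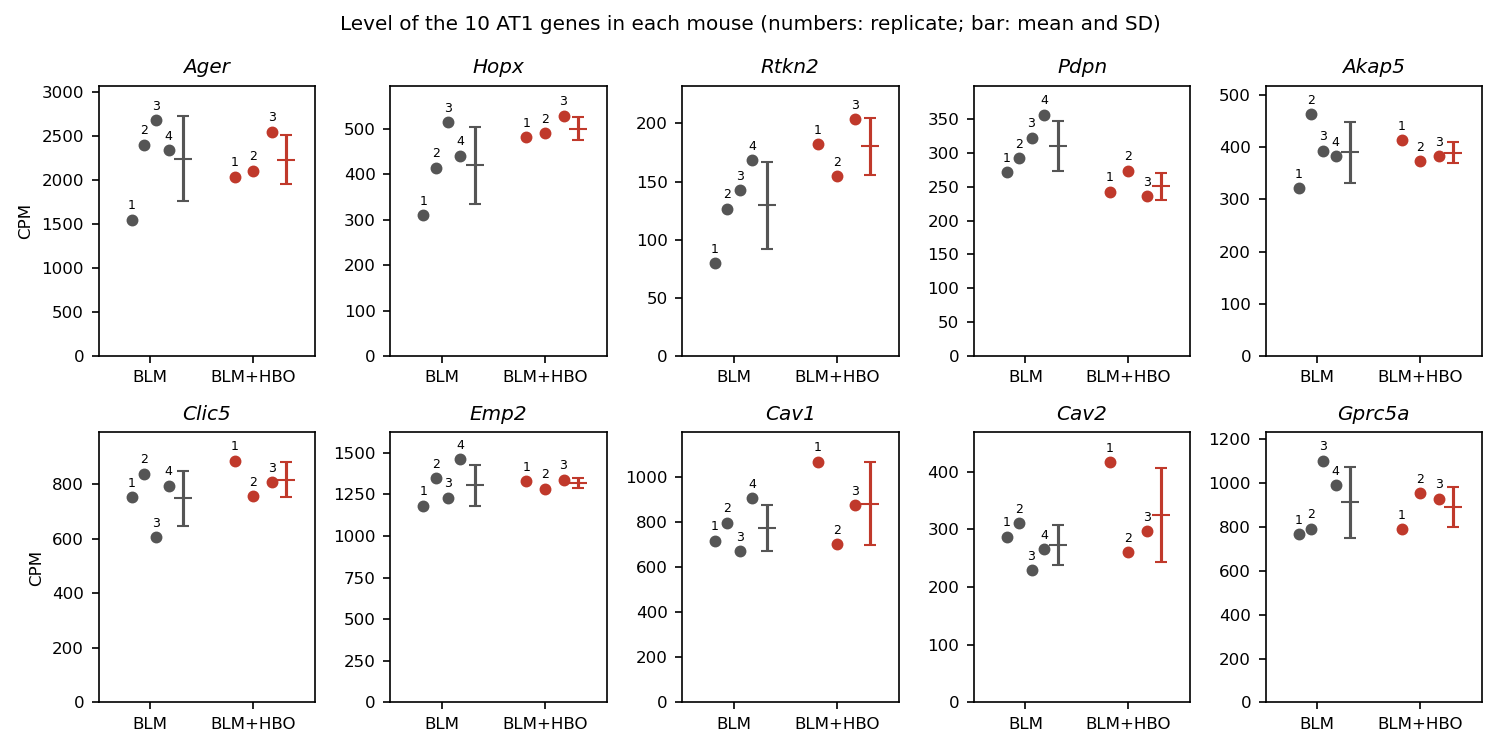
Level (CPM, axes from 0) of each AT1 gene in each mouse, with the replicate number beside each point and the mean and SD of the group beside the points. Pdpn lies between 236 and 273 CPM in BLM+HBO mice and between 271 and 356 CPM in BLM mice, and in no panel are the groups fully apart.

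Ager lies on chromosome 17 (34597862 to 34600936, plus strand, GRCm38), and its product RAGE is a receptor of the immunoglobulin family that AT1 cells carry on their basal side. Its level was 1545, 2399, 2677 and 2338 CPM in BLM 1 to 4 and 2032, 2102 and 2545 CPM in BLM+HBO 1 to 3. BLM 1 lay lowest of all mice and BLM 3 highest, so that the BLM range enclosed every BLM+HBO mouse. The log2 fold change was -0.01 (SE 0.20, 95% interval -0.45 to 0.44, edgeR adjusted P = 0.992), and its sign turned under several alternatives. Of 9 ligands and shedding proteases of RAGE, 1 was called, where 6.29% of all genes were called. This was S100a6, a calcium-binding ligand, lower in BLM+HBO mice (log2 fold change -0.72, SE 0.23, adjusted P = 0.423 by edgeR). Hmgb1, the nuclear protein that RAGE also binds, had a log2 fold change of 0.09 (95% interval -0.18 to 0.35).

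Hopx and Rtkn2 had the largest positive changes of the AT1 genes, and neither passed the P limit. Hopx (chromosome 5, 77086988 to 77115121, minus strand) encodes a homeodomain-like protein without DNA binding that marks AT1 cells and is also made in heart muscle. It stood at 310, 415, 515 and 441 CPM in BLM 1 to 4 and at 482, 491 and 530 CPM in BLM+HBO 1 to 3. All BLM+HBO mice lay above 3 of the 4 BLM mice, and BLM 3 lay within their range. Its log2 fold change was 0.25 (SE 0.16, 95% interval -0.11 to 0.62, edgeR adjusted P = 0.607). Hopx passed the P limit only without BLM 3 among the mice left out (log2 fold change 0.37), and its value was 0.13 without BLM 1. The sum of heart muscle genes was higher in BLM+HBO 1 and BLM+HBO 2 (753 and 595 CPM) than in BLM+HBO 3 (177 CPM) and the BLM mice (79 to 204 CPM), and its part in the Hopx values was not tested. The gene shares 27.2% of its exon bases with the antisense gene Hopxos, which had 20 to 67 reads per mouse, and reads that overlapped both genes were left out of the counts. The RPKM of Hopx was still scaled to all of its exon bases.

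Rtkn2 (chromosome 10, 67979570 to 68059740, plus strand) encodes rhotekin 2. Its level in BLM 1 to 4 was 80.0, 127, 142 and 169 CPM, and in BLM+HBO 1 to 3 it was 182, 155 and 204 CPM. BLM+HBO 1 and BLM+HBO 3 lay above every BLM mouse, and BLM+HBO 2 lay below BLM 4. The log2 fold change was 0.48 (SE 0.22, 95% interval -0.01 to 0.97), with an adjusted P of 0.473 by edgeR. It was 0.31 without BLM 1, the mouse with the lowest level, and 0.63 without BLM 4. Without BLM 4 Rtkn2 passed the P and fold limits, and it passed the P limit without BLM+HBO 2 and, on all mice, with DESeq2, limma-trend or no filter on low counts. Of its exon bases, 3.89% are shared with the antisense gene Gm16212, which had at most 7 reads in a mouse. Its relative Rtkn had a log2 fold change of -0.12 (95% interval -0.65 to 0.42).

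Pdpn was the AT1 gene that fell at the P limit, by less than the fold limit. It lies on chromosome 4 (143267431 to 143299564, minus strand) and encodes podoplanin, a mucin-like membrane protein of the apical AT1 surface. Its level was 271, 292, 323 and 356 CPM in BLM 1 to 4 and 242, 273 and 236 CPM in BLM+HBO 1 to 3. BLM+HBO 1 and BLM+HBO 3 lay below every BLM mouse, and BLM+HBO 2 lay just above BLM 1. It changed by -0.31 on the log2 scale (SE 0.13, 95% interval -0.59 to -0.03), a 1.24-fold lower level, with an adjusted P of 0.449 in edgeR. The P limit was missed with BLM 3, BLM 4, BLM+HBO 1 or BLM+HBO 3 left out, and the log2 fold change over all such omissions lay between -0.38 and -0.24.

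Podoplanin is also made by other cells, among them lymphatic endothelium and mesothelium, and markers of these were counted. Calls in their lists and among the partners of podoplanin are to be read against the 6.29% of all genes called. All 6 mesothelial genes had negative log2 fold changes (median -0.84) and 2 of them were called lower, Msln (-1.23) and Wt1 (-1.36). Their summed level was 431 to 730 CPM in BLM mice and 261, 507 and 128 CPM in BLM+HBO 1 to 3. Pdpn and the mesothelial sum took the same order in the BLM+HBO mice, while in BLM mice Pdpn was lowest in BLM 1 (mesothelial sum 695 CPM) and highest in BLM 4 (462 CPM). Of the lymphatic genes 5 of 6 were tested and 1, Reln, was called lower. Negative log2 fold changes were found for 4 of them and a positive one for 1, Lyve1 (0.14), with a median of -0.47. The lymphatic sum ran from 294 to 568 CPM in BLM mice and from 325 to 501 CPM in BLM+HBO mice. Much of it was Lyve1, which alone ran from 167 to 380 CPM over all mice. Ccl21a, with 0 to 20 reads per mouse, was too low to be tested, and its count gives no reading of lymphatic cells here. The part of these or of other cells in the Pdpn result was not tested. Among 7 tested partners of podoplanin 1 was called: Clec1b, the platelet receptor CLEC-2 that binds it, was higher (log2 fold change 0.62, SE 0.25, edgeR adjusted P = 0.452). The linkers Ezr and Msn, which tie podoplanin to actin, had log2 fold changes of -0.07 and -0.10 and did not pass the test.

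Akap5, Emp2 and Gprc5a had the smallest changes with Ager, each within 0.05 of 0 on the log2 scale. Akap5 (chromosome 12, 76324891 to 76334153, plus strand) encodes an anchor that holds protein kinase A and calcineurin at the membrane. It stood at 322, 463, 393 and 382 CPM in BLM 1 to 4 and at 413, 374 and 383 CPM in BLM+HBO 1 to 3. The BLM+HBO mice all lay inside the BLM range, and the log2 fold change was -0.00 (95% interval -0.31 to 0.31, edgeR adjusted P = 0.999). Of 10 partners of the anchor none was called. Prkar2a, a regulatory subunit of protein kinase A, was the partner at the P limit and was lower in BLM+HBO mice (log2 fold change -0.31, SE 0.14, adjusted P = 0.467 by edgeR).

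Emp2 (chromosome 16, 10281749 to 10313968, minus strand) encodes a tetraspan membrane protein abundant in AT1 cells. Its level was 1182, 1346, 1231 and 1461 CPM in BLM 1 to 4 and 1331, 1284 and 1338 CPM in BLM+HBO 1 to 3. It varied least of the AT1 genes, with a range over all mice of 0.31 on the log2 scale, against 1.35 for Rtkn2. The log2 fold change was 0.01 (95% interval -0.27 to 0.30, adjusted P = 0.979 by edgeR). Its relatives Emp1 and Emp3 passed the P limit and were lower in BLM+HBO mice, with log2 fold changes of -0.47 (SE 0.18) and -0.48 (SE 0.16), both short of the fold limit. The difference between Emp2 and these relatives was not tested.

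Gprc5a (chromosome 6, 135065651 to 135084709, plus strand) encodes an orphan receptor of the G protein-coupled class that lung epithelium makes and retinoic acid induces. It was at 765, 792, 1101 and 991 CPM in BLM 1 to 4 and at 788, 954 and 929 CPM in BLM+HBO 1 to 3. The BLM mice fell into a lower and a higher pair, and the BLM+HBO mice lay within their range. Its log2 fold change was -0.03 (95% interval -0.40 to 0.33, adjusted P = 0.956 in edgeR). Its relatives Gprc5b and Gprc5c had values of -0.10 and 0.08 and did not pass the test.

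Clic5, Cav1 and Cav2 are the AT1 genes that capillary endothelium also makes, and all had small positive values. Clic5 (chromosome 17, 44134768 to 44280172, plus strand) encodes an intracellular chloride channel protein that binds the cortical actin skeleton. The RefSeq promoter window searched for it (44188322 to 44188621) lies inside the gene as the count table lists it, downstream of the listed start. It stood at 751, 838, 604 and 793 CPM in BLM 1 to 4 and at 884, 755 and 807 CPM in BLM+HBO 1 to 3. BLM 3 lay lowest and BLM+HBO 1 highest, with the other mice mixed between them. The log2 fold change was 0.13 (SE 0.14, 95% interval -0.19 to 0.45, edgeR adjusted P = 0.779). Its relative Clic1 passed the P limit and was lower in BLM+HBO mice (log2 fold change -0.29, SE 0.11).

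Cav1 and Cav2 encode the caveolins that form the coat of caveolae, the membrane pits dense in AT1 and endothelial cells. They are neighbours on chromosome 6, both on the plus strand, with 17219 bases between the end of Cav2 (17281185 to 17289115) and the start of Cav1 (17306335 to 17341452). Cav1 was at 717, 796, 669 and 904 CPM in BLM 1 to 4 and at 1067, 701 and 872 CPM in BLM+HBO 1 to 3. Cav2 was at 287, 311, 230 and 266 CPM in BLM 1 to 4 and at 416, 261 and 297 CPM in BLM+HBO 1 to 3. For both genes BLM+HBO 1 was the highest mouse, BLM 3 the lowest, and the rest overlapped. The log2 fold changes were 0.19 for Cav1 (SE 0.17, 95% interval -0.19 to 0.57) and 0.25 for Cav2 (SE 0.17, 95% interval -0.14 to 0.64), with edgeR adjusted P values of 0.715 and 0.628. Without BLM+HBO 1 both values fell to 0.03. The ratio of Cav1 to Cav2 CPM was 2.84 ± 0.413 in BLM mice (SD, n = 4) and 2.73 ± 0.192 in BLM+HBO mice (SD, n = 3), a difference within the spread.

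Of 10 further caveola genes 1 was called, where 6.29% of all genes were called. Cavin2, a coat protein of caveolae in endothelium, was higher in BLM+HBO mice (log2 fold change 0.70, SE 0.25, edgeR adjusted P = 0.425). Cavin3, another coat protein, was lower in all BLM+HBO mice than in any BLM mouse (log2 fold change -0.58, SE 0.13), and its fold lay just short of the limit. Cavin1, the cavin on which caveolae depend, had a log2 fold change of -0.09 (95% interval -0.37 to 0.19). The 14 capillary endothelial genes all had positive log2 fold changes (median 0.24) and none was called, though 2 were without BLM 4 and 1 without BLM+HBO 2. Their summed level was 3143 to 4307 CPM in BLM mice and 4677, 3560 and 4741 CPM in BLM+HBO 1 to 3, and the part of endothelial RNA in the values of Clic5, Cav1 and Cav2 was not tested.

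**Figure D3:**
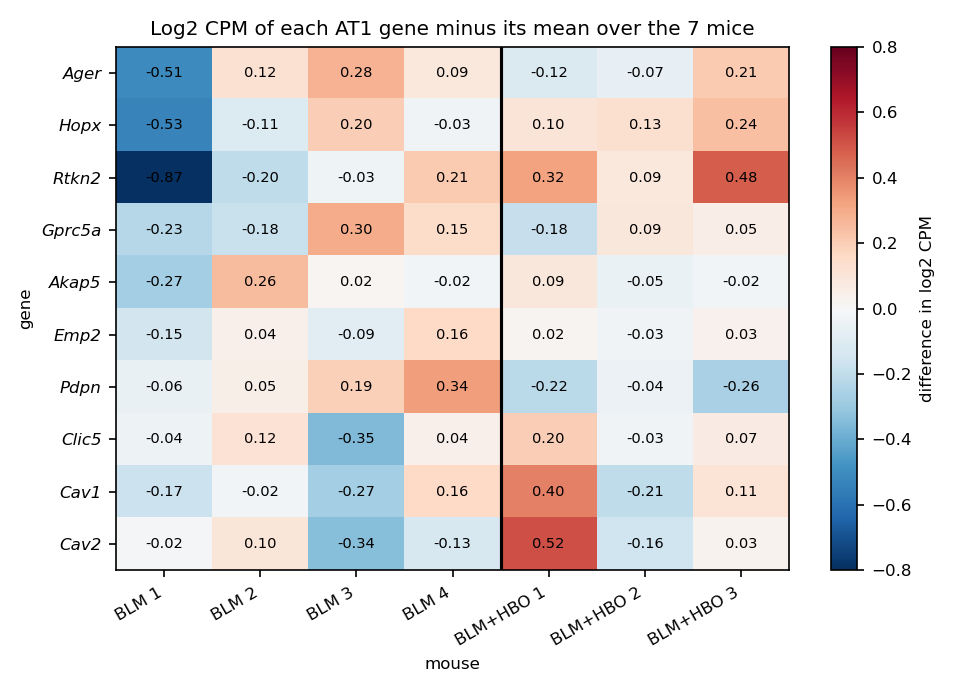
Log2 CPM of each AT1 gene in each mouse minus the mean of that gene over the 7 mice, blue below and red above, with a line between BLM and BLM+HBO. BLM 1 is low in Ager, Hopx and Rtkn2 (-0.51, -0.53 and -0.87), and BLM+HBO 1 is high in Cav1 and Cav2 (0.40 and 0.52).

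The AT1 genes did not move as 1 block between mice. BLM 1 had the lowest level of 6 of them (Ager, Hopx, Rtkn2, Akap5, Emp2 and Gprc5a), and BLM 3 the lowest of Clic5, Cav1 and Cav2 while it had the highest of Ager and Gprc5a. BLM 1 also had the lowest sum of AT2 genes, 10608 CPM against 17612 to 19205 CPM in the other BLM mice. The summed level of the 10 AT1 genes was 6230, 7778, 7884 and 8100 CPM in BLM 1 to 4 and 7838, 7350 and 8139 CPM in BLM+HBO 1 to 3, so that BLM 1 stood below the rest and the others of both groups overlapped.

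Correlations over the 7 mice are given as a description, since the points share libraries and both groups. Hopx and Rtkn2 moved together (Pearson r = 0.90, Spearman correlation 0.68), as did Ager and Hopx (0.81 and 0.64). Ager and Rtkn2 did so less by rank (0.68 and 0.21), and BLM 1 lay lowest in each of these genes. Clic5, Cav1 and Cav2 formed a second set, with r between 0.79 and 0.83 and Spearman correlations between 0.75 and 0.89 for its pairs. Between Ager, Hopx and Rtkn2 on the one hand and this set on the other, r ran from -0.30 (Ager and Cav2) to 0.57 (Rtkn2 and Cav1). Gprc5a had r of -0.75 with Cav2 and -0.70 with Clic5. Cav1 had r = 0.92 with Pecam1, the endothelial adhesion molecule, and Cav2 had r = 0.90 with Tek, the angiopoietin receptor. High values with endothelial genes were not limited to the caveolins: Emp2 had r = 0.84 with the endothelial cadherin Cdh5, Clic5 had r = 0.80 with Tek and Rtkn2 had r = 0.74 with Pecam1. Gprc5a, Hopx and Ager had r of 0.94, 0.86 and 0.78 with Aqp5, the water channel of AT1 cells, while Clic5 and Cav2 had -0.50 and -0.51. Rtkn2 and Hopx also had r of 0.85 and 0.76 with the AT2 gene Sftpc. Pdpn had r = 0.75 with Krt7, an epithelial keratin, where Gprc5a had 0.74, and 0.69 with Msln, the mesothelial antigen. With the lymphatic gene Prox1, Pdpn had r = 0.11 and Rtkn2 had -0.97. The values thus did not sort the AT1 genes cleanly by cell type.

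The mean of the 10 standardised levels was most like that of Egfl6, Hdac8, Il33, Tinf2 and Nrde2 over the 7 mice, with r between 0.96 and 0.97, and least like that of Pkhd1, Olfr1372-ps1, Exo5, Zfp207 and Slc38a11, with r between -0.98 and -0.95. These are the extremes over all other tested genes on 7 mice, where high values can arise without a relation, and none was tested. The mean was also set largely by BLM 1, at -1.15 against -0.15 to 0.49 in the other mice.

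**Figure D4:**
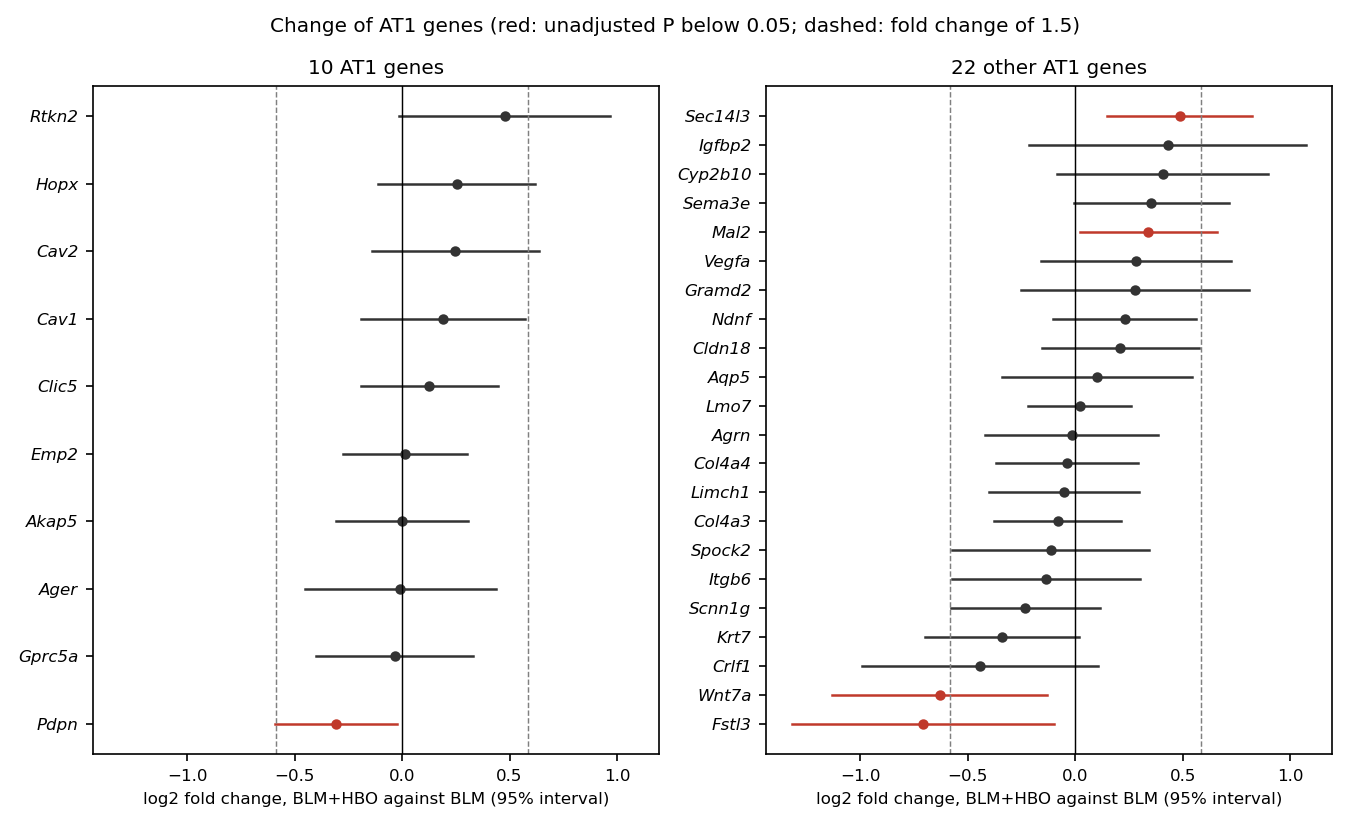
Log2 fold change (BLM+HBO against BLM) with its 95% interval for the 10 AT1 genes and for 22 other AT1 genes, red where the unadjusted P was below 0.05, with dashed lines at a fold of 1.5. Pdpn is the 1 red gene on the left, and Wnt7a and Fstl3 on the right pass both limits.

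The 22 other genes known from AT1 cells had 11 positive and 11 negative log2 fold changes, from -0.71 to 0.49, with a median of 0.00. Of these, 2 were called, both lower in BLM+HBO mice, where 6.29% of all genes were called. Separate ranges were found for 3 of the 22, against 8.77% of all genes. Wnt7a, a Wnt ligand, was at 45.8, 39.5, 44.4 and 38.1 CPM in BLM 1 to 4 and at 17.2, 37.4 and 26.6 CPM in BLM+HBO 1 to 3. Its groups were separate, though BLM+HBO 2 lay next to the lowest BLM mouse, and its log2 fold change was -0.63 (SE 0.22, edgeR adjusted P = 0.423). Fstl3, a secreted inhibitor of activin, was at 30.9, 23.7, 18.3 and 15.6 CPM in BLM 1 to 4 and at 9.05, 15.3 and 16.2 CPM in BLM+HBO 1 to 3, and BLM+HBO 3 lay above BLM 4. Its log2 fold change was -0.71 (SE 0.27, edgeR adjusted P = 0.438). The number of these genes called was 4 with BLM+HBO 2 omitted, 0 with BLM+HBO 1 omitted, and 1 with any of BLM 1, BLM 2 and BLM+HBO 3 omitted. Fstl3 missed the P limit without BLM 1, BLM 2 or BLM+HBO 1, and Wnt7a missed it without BLM+HBO 3.

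Sec14l3 and Mal2 passed the P limit in the other direction, short of the fold limit. Sec14l3, a lipid-binding protein, was at 837, 925, 830 and 820 CPM in BLM 1 to 4 and at 1356, 940 and 1290 CPM in BLM+HBO 1 to 3, with the groups separate by a small margin at BLM+HBO 2. Its log2 fold change was 0.49 (SE 0.15, adjusted P = 0.423 by edgeR). Mal2, a protein of apical membrane traffic, had a log2 fold change of 0.34 (SE 0.14, adjusted P = 0.455 by edgeR), and missed the P limit without any 1 of BLM 1, BLM 2, BLM 4, BLM+HBO 1 and BLM+HBO 3. Aqp5 had a value of 0.10 (95% interval -0.34 to 0.55), Igfbp2, which marks mature AT1 cells, 0.43 (-0.21 to 1.07), and Vegfa, the growth factor by which AT1 cells sustain the capillaries, 0.28 (-0.16 to 0.73). The basement membrane collagens Col4a3 and Col4a4 had -0.08 and -0.04. None of these 5 passed the test.

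**Figure D5:**
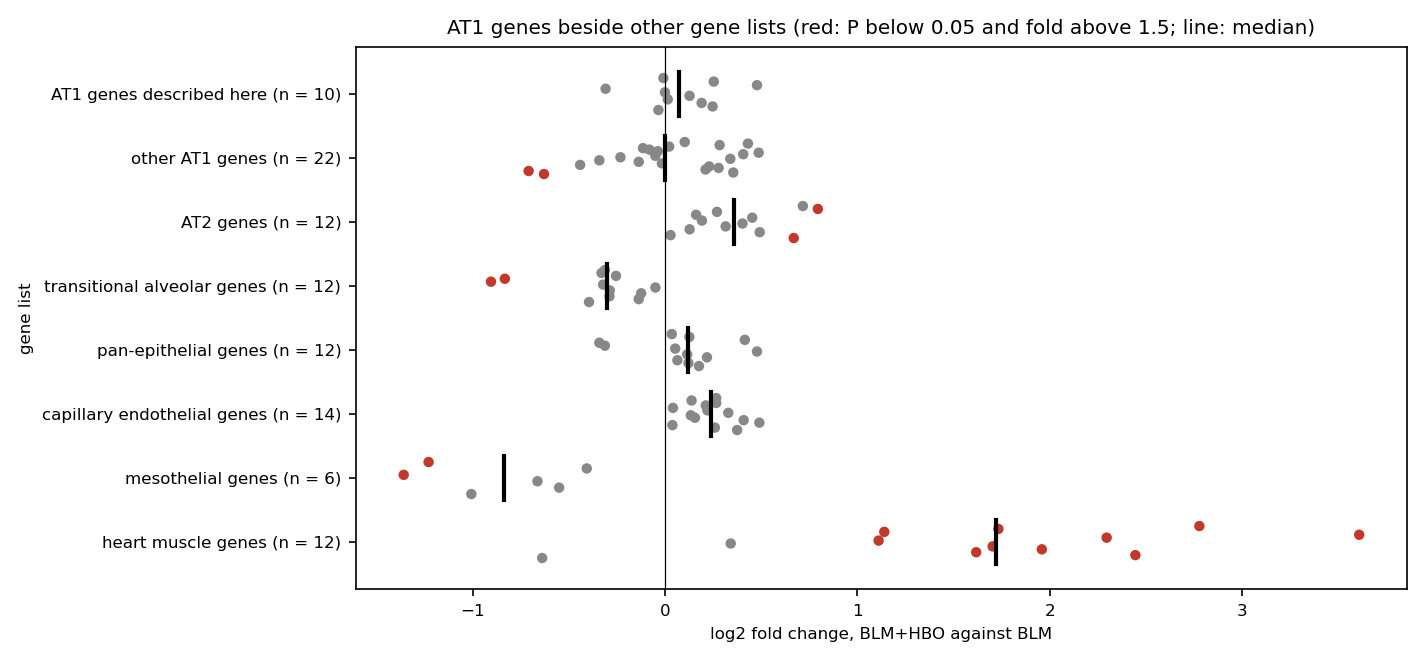
Log2 fold change (BLM+HBO against BLM) of each tested gene in the AT1 lists and 6 further lists, red where the gene was called, with a black line at the median. Krt7, Krt8 and Itgb6 are shared between lists. The AT1 medians lie near 0, the 12 AT2 genes all above 0 and the 12 transitional genes all below it.

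Genes of the cells before AT1 in the alveolar lineage leaned to opposite sides, in lists where calls are again to be read against the 6.29% of all genes called. All 12 AT2 genes had positive log2 fold changes (median 0.36) and 2 were called higher, the surfactant gene Sftpa1 (0.79, SE 0.31) and the growth factor receptor gene Fgfr2 (0.67, SE 0.24). The summed AT2 level was 27351, 13411 and 31544 CPM in BLM+HBO 1 to 3, and BLM+HBO 2 lay within the BLM range of 10608 to 19205 CPM. All 12 transitional genes had negative values (median -0.30) and 2 were called lower, Sfn (-0.91, SE 0.25), which encodes the 14-3-3 protein stratifin, and Cldn4 (-0.83, SE 0.30), a tight junction claudin. The summed transitional level was 1572, 2139 and 1835 CPM in BLM+HBO 1 to 3 and 1837 to 2866 CPM in BLM mice, so the groups overlapped. All 6 mesothelial genes were negative too (median -0.84), and the part of mesothelial and other cells in the transitional values was not tested. The members of each list share mice and largely share cells, and no test of a list was made. The lists also share genes: Itgb6 is in the transitional and other AT1 lists, Krt8 in the transitional and pan-epithelial lists, and Krt7 in the pan-epithelial and other AT1 lists. The count of AT2 genes called rose to 6 when BLM+HBO 2 was left out, and it was 1 when BLM 3 and 0 when BLM 1, BLM+HBO 1 or BLM+HBO 3 was left out. That of transitional genes was 1 without BLM+HBO 1 or BLM+HBO 3. In the pan-epithelial list, 10 of 12 genes were positive, the median was 0.12 and none was called.

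Ratios of CPM within a mouse set Ager beside the AT2 gene Sftpc and beside Hopx. They are from 7 ratios chosen after the values were seen, so their P values are no independent support. The ratio of Ager to Sftpc CPM was 0.340, 0.288, 0.285 and 0.283 in BLM 1 to 4 and 0.137, 0.322 and 0.156 in BLM+HBO 1 to 3. BLM+HBO 1 and BLM+HBO 3 thus lay below every BLM mouse and BLM+HBO 2 among them. The ratio of Hopx to Ager was 0.173 to 0.201 in BLM mice and 0.237, 0.233 and 0.208 in BLM+HBO 1 to 3, which lay above all BLM mice. By exact two-sided permutation over the 35 assignments, adjusted over the 7 ratios, P was 0.25 for Ager to Sftpc, and 0.10 for Hopx to Ager and for Rtkn2 to Pdpn, the value that the smallest possible P of 0.0286 gave here. The adjusted P of the other ratios (Cav1 to Cav2, Cav1 to Pecam1, Emp2 to Emp1 and Ager to Krt8) lay between 0.25 and 0.829.

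Regulators of the AT1 state were also counted. YAP and TAZ with their TEAD partners drive the AT1 state, and of 14 genes of this axis none was called. Of these, 10 had negative and 4 positive log2 fold changes, from -0.52 to 0.16 with a median of -0.10. The lowest were Ccn2 (-0.52, 95% interval -1.13 to 0.09) and Axl (-0.48, -0.99 to 0.03). Yap1 had a log2 fold change of 0.04 (95% interval -0.18 to 0.25) and Tead1 of -0.01 (-0.22 to 0.19), so both lay well within a fold of 1.5. Of 9 transcription factors 1 was called, against 6.29% of all genes. This was Sox9, a factor of the embryonic lung tip, lower in BLM+HBO mice (log2 fold change -1.20, SE 0.49, edgeR adjusted P = 0.447), at 0.905 to 6.17 CPM. Nkx2-1 had a log2 fold change of 0.41 (95% interval -0.19 to 1.02) and did not pass the test.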

How the data were processed

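RNA from the right lung lobes of 7 mice was sequenced, 1 library per mouse. Per the labels and the methods, the authors mapped reads to GRCm38 with HISAT2 2.2.0 after trimming and made gene counts with featureCounts in its default mode, which ignores strand and leaves out reads shared between genes. The annotation release is not given in the sources used here. The deposited values are raw read counts, not normalised, beside the exon length of each gene. Symbols came from GENCODE vM21 (55141 of 55401 genes).

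filterByExpr kept 17465 genes (count of at least 10, total of at least 15), which were scaled by TMM and tested with edgeR 4.0.16 under R 4.3.3 (quasi-likelihood, Benjamini-Hochberg over all tested genes), BLM as reference. Called means an unadjusted P below 0.05 and a fold change above 1.5, the limits of the study. Intervals (95%) use the standard error of that fit. RPKM used the deposited exon lengths. On simulated data (3 sets for this comparison, 17465 genes, 200 changed), 66% of genes changed 2-fold and 92% of those changed 4-fold were recovered at an adjusted P below 0.05, with 4.60% of calls false. The simulated counts followed the general trend of spread with level, without spread particular to a gene or a mouse that stood apart. In the measured data the lowest adjusted P by edgeR was 0.423, also for Mb at a 12.2-fold higher level. The simulated shares therefore do not give the power of the comparison made here.

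The genes, the lists and the promoter motifs were chosen with earlier results of these data known. All 10 AT1 genes are named. From other lists, genes past the P limit, up to 4 of lowest P, or any member of the other AT1, caveola, AT2, capillary endothelial and paralog lists could be named, and so could the 5 genes most and least like the mean AT1 level. Hmgb1, Ezr, Msn, Yap1, Tead1, Ccl21a and Nkx2-1 were added for their roles after their values were seen. Alternatives were DESeq2 1.42.0, limma-trend (limma 3.58.1), RLE and upper-quartile factors, and no filter or one of 1 CPM in 3 mice. Others were robust empirical Bayes, stricter limits (fold above 2, P of 0.01) and each mouse left out. The replicate number was also used as a block, on the mice whose number both groups hold, so without BLM 4. Mice are replicates by the labels, and libraries of 1 group differed by at least 22.1 in chi-square per gene.

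Further lists gave these results. Of 10 fibroblast genes, 6 were called (Tcf21 and Inmt higher, Col1a1, Col3a1, Dcn and Lum lower). Of 6 club and ciliated genes, 3 were called higher, and of 9 leukocyte genes tested, 2 were called higher and 2 lower. None of 3 adipocyte genes tested and none of 12 paralogs of the AT1 genes tested was called.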

Additional observations from a re-analysis of the deposited data

Results flagged for a closer look

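In the 4 BLM mice, the total count of BLM 4 lay far from the others, with a gap of 0.971 of the range against Dixon's 95% critical value. The range itself was narrow, from 18436336 to 19002242 counts. Of 33 groups of values examined, 1 passed, and chance flags about 1 in 20.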

How the results depend on the processing

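Over 15 alternatives for each AT1 gene, 150 log2 fold changes were computed, of which 114 kept direction and side of the P limit. The direction turned in 23, all of genes near 0. For Ager the turned values were 0.013 with limma-trend, 0.012 with upper-quartile factors and 0.044 with the block, and with mice left out in turn its value ran from -0.151 without BLM 1 to 0.0889 without BLM 3. For Akap5 they were 0.0099 with limma-trend, 0.024 with upper-quartile factors, 0.0037 with 1 CPM in 3 mice and 0.0046 with the block, and without single mice its value ran from -0.0831 (without BLM 1) to 0.0919 (without BLM 2). Emp2 ran from -0.0310 without BLM 1 to 0.0732 without BLM 4, and Gprc5a from -0.110 without BLM 1 to 0.0688 without BLM 3, with 0.023 under the block. The difference in the log2 ratio of Cav1 to Cav2 ran from -0.107 without BLM 1 to 0.0411 without BLM 4. No AT1 gene passed an adjusted P of 0.05 in edgeR, DESeq2 or limma under any alternative run.

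With mice left out in turn, 0 to 1 AT1 genes were called and 0 to 2 passed the P limit, 0 to 4 other AT1 genes were called, 659 (without BLM+HBO 1) to 1914 (without BLM+HBO 2) of all genes, 0 to 6 AT2 genes, 1 to 3 transitional genes and 0 to 2 capillary endothelial genes. AT1 genes at the P limit numbered 2 with DESeq2, 2 with limma-trend, 2 with no filter and 0 with upper-quartile factors. A fold above 2 left 509 of all genes and 0 other AT1 genes, a P limit of 0.01 left 319 and 0, and no filter gave 1940. At an adjusted P below 0.05, all genes numbered 123 with DESeq2, 387 with no filter, 267 without BLM+HBO 2 and 2 without BLM+HBO 3. AT2 genes called numbered 1 with limma-trend. The cause of these differences was not tested. The runs on AT2, transitional and endothelial lists and on ratios were chosen after seeing the data.

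The labels do not say whether the replicate numbers pair the mice. After the mean of each group was taken out, same-numbered mice had correlations of -0.06, -0.04 and 0.20. Those of mice with different numbers ran from -0.17 to 0.20, so these values cannot settle whether the mice were paired. The run with the replicate number as a block also left out BLM 4, whose number no BLM+HBO mouse shares. In it, Rtkn2 was the 1 AT1 gene called (log2 fold change 0.66). Also called were 3 other AT1 genes, 2 capillary endothelial genes, 0 AT2 genes and 1253 of all genes. With BLM 4 left out and no block, these counts were 1 (Rtkn2, 0.63), 2, 2, 2 and 1220.

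Depth did not limit the AT1 genes. The groups held 4 and 3 mice, and no lung without bleomycin was analysed here.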
